A study of Homo sapiens with 9 samples.

Results

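Vimentin (VIM), its antisense transcript VIM-AS1 and 8 genes commonly used to place a carcinoma cell between an epithelial and a mesenchymal state were followed in RNA-seq libraries of OVCAR5, an established human epithelial ovarian cancer cell line. The 10 genes are VIM, VIM-AS1, CDH2, FN1, ZEB1, ZEB2, SNAI2, CDH1, EPCAM and GRHL2. They were found by symbol through the GENCODE annotation among the 60649 gene identifiers of the count table, and all 10 were present. VIM and VIM-AS1 were selected on their levels in these groups, so their values are described without a test. Of the 10, 9 passed the filter on low counts, as did 19674 genes in all, and ZEB2 did not.

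Vimentin is the intermediate filament protein of mesenchymal cells, and its appearance in a carcinoma cell is a usual sign of epithelial-mesenchymal transition (EMT), in which epithelial cells lose cell-cell junctions and gain motility. ZEB1, ZEB2 and SNAI2 are transcription factors that repress CDH1 (E-cadherin) and other junction genes, while GRHL2 maintains the epithelial program and opposes ZEB1. FN1 (fibronectin) and CDH2 (N-cadherin) are the matrix and adhesion proteins most often followed on the mesenchymal side, and EPCAM is a surface adhesion molecule of epithelial cells. Ovarian carcinomas often hold intermediate states in which markers of both sides are present.

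The study asked which transcripts follow the m6A RNA methyltransferase METTL3 in ovarian cancer. There were 9 libraries of total RNA after poly(A) selection, 3 in each of the groups NC, SM2 and SM4. Every library came from OVCAR5 cells given a lentivirus and kept under puromycin, with no drug or time series. NC is labelled as the control, called parental in the series text and a control hairpin in the study's methods, and SM2 and SM4 carry the METTL3 knockdown label without saying which hairpin each received. The source field of the SM4 libraries names OVCAR6, OVCAR7 and OVCAR8, although their cell line field says OVCAR5, and this was not resolved. Nothing in the labels says that the replicates of a group were separate transductions, so each p-value measures the spread between these libraries.

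Total counts ran from 44103272 to 63693728 per library, so 1 CPM, the read count scaled to library size that serves as the unit of level here, stood for 44.1 to 63.7 counts. METTL3 itself went against the labels. It was at 36.2, 34.4 and 36.6 CPM in NC, 37.0, 39.8 and 40.0 CPM in the libraries labelled SM2, and 60.6, 57.5 and 62.4 CPM in those labelled SM4. The log2 fold change of METTL3 was 0.12 in SM2 (SE 0.0549, adjusted p = 0.12) and 0.75 in SM4 (SE 0.0539, adjusted p = 2.21e-09), so every direction below belongs to a label and not to a measured loss of METTL3. The labels do not settle which libraries are the control. The study lists fold changes of its 2 hairpins against the control hairpin. With the sign turned, they match SM4 against NC and SM4 against SM2 for METTL3 (0.75 and 0.63 here) and PPL (0.44 and 0.31 here). The same holds closely for MSLN (1.48 and 0.70 here) and PECAM1 (1.32 and 0.73 here). By that match the libraries labelled SM4 would be the control hairpin, and NC and SM2 the knockdowns. If so, the values below for SM4 against NC and SM4 against SM2 keep their size and change sign when read as knockdown against control, and SM2 against NC compares 2 knockdowns. Against the libraries labelled SM4, VIM was higher in SM2 and lower in NC, and SNAI2 was higher in both. SM2 replicate 3 stood apart from the other libraries of its group (chi-square per degree of freedom 16.7 and 13.8 against them, compared with 4.21 to 6.04 within NC and SM4 and 4.37 between the other SM2 libraries). Values without it are given wherever a call among the 10 genes turned on it.

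The epithelial label of the line held in the counts. All 10 epithelial markers examined, among them keratins, PAX8 and MUC16, averaged at least 1 CPM, with summed levels of 10580 to 11070 CPM in NC, 12210 to 12830 in SM2 and 11850 to 12560 in SM4. Of 8 fibroblast markers only COL1A1 averaged at least 1 CPM, and their sum was 21.4 to 25 CPM in NC, 22.6 to 27.4 in SM2 and 22.1 to 25 in SM4. The sum of 6 endothelial markers, nearly all from PECAM1, was 6.15 to 7.04 CPM in NC, 8.81 to 10.1 in SM2 and 13.8 to 16.4 in SM4, with KDR at 0 in every library. The sum of 8 leukocyte markers, mostly CD14, was 5.86 to 7.12, 8.82 to 9.97 and 10.5 to 11.5 CPM in the same order, with CD3D and MS4A1 at 0. Of 5 mesothelial markers 3 averaged at least 1 CPM. The 5 summed to 126 to 141, 132 to 135 and 129 to 141 CPM, with CALB2 the highest at up to 113 CPM and ITLN1 at 0. The mesothelial marker UPK3B was called higher than in NC in SM2 (log2 fold change 0.445) and SM4 (0.504). The part of the PECAM1, CD14 and UPK3B differences in any result was not tested. In bulk RNA, more cells expressing a gene and more RNA per cell cannot be told apart.

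The sequence ahead of VIM is shown because the comparison starts from VIM, and that ahead of VIM-AS1 because a start of this antisense transcript lies inside VIM and its level followed that of VIM in SM2 but not in SM4. The ZEB1 window is shown because ZEB1 was the EMT repressor that rose in SM2. Among the several ZEB1 windows, that with the most E-boxes before the start was picked. The VIM-AS1 and ZEB1 sequences were chosen after the values were seen. Each line gives the 250 bases before a RefSeq transcript start on GRCh38.p14, 5′ to 3′ on the strand of the gene. Capitals mark the E-box letters CACCTG, or CAGGTG as they read on the other strand, the core that ZEB and SNAI proteins are known to bind.
VIM, chr10:17227991-17228240, plus strand: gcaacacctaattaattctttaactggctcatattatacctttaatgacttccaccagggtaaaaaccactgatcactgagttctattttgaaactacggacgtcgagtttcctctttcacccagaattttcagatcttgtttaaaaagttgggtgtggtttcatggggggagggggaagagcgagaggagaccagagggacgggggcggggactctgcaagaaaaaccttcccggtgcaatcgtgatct
VIM-AS1, chr10:17229986-17230235, minus strand: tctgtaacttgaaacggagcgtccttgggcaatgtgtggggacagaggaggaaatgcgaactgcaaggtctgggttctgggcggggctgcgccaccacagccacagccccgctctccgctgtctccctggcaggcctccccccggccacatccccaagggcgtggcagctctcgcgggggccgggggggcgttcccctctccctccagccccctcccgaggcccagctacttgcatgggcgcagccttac
ZEB1, chr10:31318966-31319215, plus strand: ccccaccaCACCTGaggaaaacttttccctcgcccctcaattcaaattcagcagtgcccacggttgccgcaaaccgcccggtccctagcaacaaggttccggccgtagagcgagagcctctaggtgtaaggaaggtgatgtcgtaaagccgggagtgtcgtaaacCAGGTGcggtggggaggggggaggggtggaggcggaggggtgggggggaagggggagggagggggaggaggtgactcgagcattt

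RefSeq windows of 300 bases (250 before and 50 after a start) were found for 6 of the 10 genes, 14 windows in all. Those of VIM, VIM-AS1, CDH2, FN1 and ZEB2 held neither spelling of the E-box. ZEB1 had an E-box in 2 of its windows, 1 in the window at chr10:31318167-31318466 and 3 in the window at chr10:31318966-31319265, of which 2 lie in the printed bases. Of the 14 windows, 2 held an E-box. Across 35116 windows of all genes, 20.6% held at least 1 E-box and 0.635% held 3 or more. The printed ZEB1 window was picked from several for its E-boxes, so its count cannot be set against the 0.635%. All these E-box matches are letters in a window and say nothing of whether a factor was bound. CDH1, EPCAM, SNAI2 and GRHL2 had no window in the table.

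VIM was higher in SM2 than in NC and stood between them in SM4. The gene lies on chr10:17228241-17237593 (GRCh38, plus strand) with 5176 annotated exonic bases. Its level was 6.29, 5.74 and 4.71 CPM in NC, 42.6, 41.6 and 45.0 CPM in SM2, and 14.7, 15.3 and 12.2 CPM in SM4. The 3 groups did not overlap, and every SM2 library was above every SM4 library, which in turn was above every NC library. The means were 5.58 ± 0.801, 43.1 ± 1.74 and 14.1 ± 1.62 CPM (SD, n = 3 each). VIM was thus 7.77-fold higher in SM2 than in NC, a log2 fold change of 2.96 (SE 0.0965), and 2.55-fold higher in SM4 than in NC, a log2 fold change of 1.35 (SE 0.0990). Between the knockdown labels, SM4 was lower than SM2 by a log2 fold change of -1.61 (SE 0.0866). By log2 fold change among 14431 genes with a mean of at least 1 CPM, VIM ranked 8 from the top for SM2 against NC and 80 from the top for SM4 against NC. Against SM2, its SM4 value ranked 9 from the bottom.

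VIM-AS1, a long non-coding RNA on the opposite strand (chr10:17214239-17230018), was higher in SM2 and lower in SM4 than in NC. Its level was 1.12, 1.56 and 1.20 CPM in NC, 2.14, 3.06 and 3.02 CPM in SM2, and 0.280, 0.316 and 0.312 CPM in SM4. Here SM4 was the lowest group, below every NC library, whereas for VIM it was the middle one. The log2 fold change was 1.08 in SM2 (SE 0.205) and -2.10 in SM4 (SE 0.257), and between the knockdown labels it was -3.18 (SE 0.244). The counts behind these levels were small, at 49, 85 and 70 in NC, 98, 147 and 160 in SM2, and 17, 20 and 16 in SM4. There were 3.67 to 5.63 VIM counts for each VIM-AS1 count in NC, 13.6 to 19.9 in SM2 and 39.3 to 52.7 in SM4, with no overlap between the groups.

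RefSeq gives VIM-AS1 2 starts. One lies 1343 bases before the start of VIM, at chr10:17226898, and the other, whose upstream bases are printed above, falls 1744 bases after it, at chr10:17229985, the last base of exon 2 of the canonical VIM transcript (chr10:17229276-17229985) and of the coding part of that exon. The annotated genes share 1778 bases of span and 656 exonic bases, which are 30.9% of the exonic bases of VIM-AS1 and 12.7% of those of VIM. Whether counting used the strand is not given in the sources used here, and the library kit is described differently in the labels and in the study's methods, so reads from the shared bases cannot be assigned with certainty. With the counts of both genes added together, the log2 fold change was 2.74 in SM2 and 1.08 in SM4, compared with 2.96 and 1.35 for VIM alone. VIM also shares 619 exonic bases with the antisense gene ENSG00000234961, which had 0 counts in every library.

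**Figure D1:**
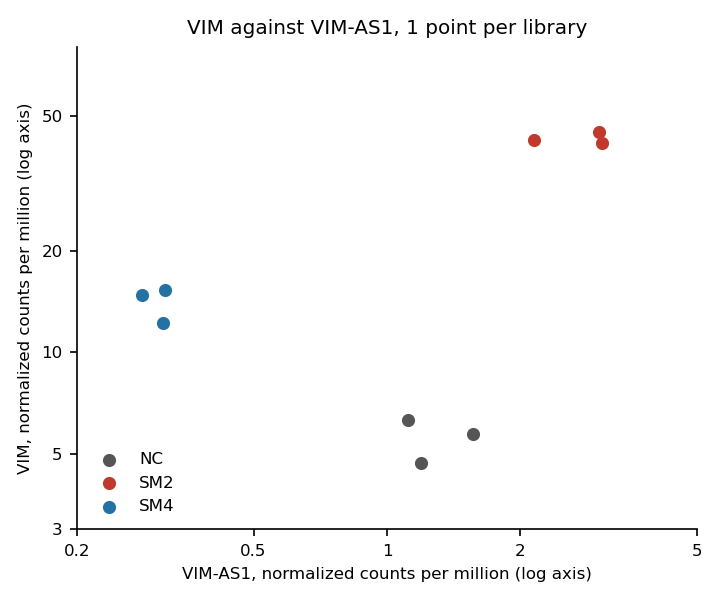
VIM against VIM-AS1, both in normalized CPM on log axes, with 1 point per library colored by group. NC sits at 4.71 to 6.29 on the VIM axis, SM4 at 12.2 to 15.3 and SM2 at 41.6 to 45.0, while on the VIM-AS1 axis SM4 is lowest at 0.280 to 0.316.

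ZEB1, a zinc finger repressor of CDH1 (chr10:31318495-31529814), rose in SM2 and showed no detectable difference in SM4. Its level was 2.96, 2.87 and 2.54 CPM in NC, 5.71, 5.32 and 5.56 CPM in SM2, and 3.09, 2.39 and 3.63 CPM in SM4. All SM2 libraries were above all others, and SM4 overlapped NC. On the log2 scale ZEB1 was higher by 0.99 in SM2 (SE 0.146, adjusted p = 3.87e-05) and 0.12 in SM4 (SE 0.15, adjusted p = 0.66). The SM4 value turned to -0.03 without SM4 replicate 3. SM4 was lower than SM2 by a log2 fold change of -0.87 (SE 0.143, adjusted p = 0.000225). ZEB1 shares 4.58% of its exonic bases with the opposite-strand gene ZEB1-AS1.

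ZEB2, the related repressor (chr2:144364364-144521057), was near the limit of detection. It had 21, 12 and 2 counts in NC, 4, 2 and 5 in SM2, and 8, 4 and 4 in SM4, or at most 0.479 CPM. The groups overlapped, and the gene did not pass the filter. In a fit with no filter its adjusted p was 0.164 for SM2 and 0.281 for SM4, so a difference in ZEB2 was not detectable at this depth.

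SNAI2, the Slug repressor (chr8:48917598-48921740), fell under both knockdown labels. Its level was 10.8, 12.7 and 11.4 CPM in NC, 8.93, 9.81 and 7.43 CPM in SM2, and 5.52, 6.15 and 6.47 CPM in SM4. The groups did not overlap, and their order was NC, SM2, SM4 from high to low. Relative to NC, SNAI2 had a log2 fold change of -0.42 in SM2 (SE 0.106, adjusted p = 0.00644) and -0.95 in SM4 (SE 0.108, adjusted p = 1.46e-06). Without NC replicate 2 the SM2 value was -0.35 and its call was lost (adjusted p = 0.0517), and without SM2 replicate 3 it was -0.31 and kept (adjusted p = 0.031). SM4 was also lower than SM2, by a log2 fold change of -0.53 (SE 0.11, adjusted p = 0.0024). SNAI2 therefore had the opposite sign to ZEB1 in SM2.

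FN1, which encodes the matrix protein fibronectin (chr2:215360440-215436073), fell slightly in SM2. Its level was 138, 139 and 132 CPM in NC, 120, 125 and 105 CPM in SM2, and 126, 125 and 125 CPM in SM4. All NC libraries were above all others, and SM2 replicate 3 was the lowest of the 9. For FN1 this gave a log2 fold change of -0.23 in SM2 (SE 0.0536, adjusted p = 0.0036) and -0.12 in SM4 (SE 0.0533, adjusted p = 0.116). Without SM2 replicate 3 the SM2 value was -0.15 (adjusted p = 0.00432), and the SM4 value of -0.13 then passed the threshold (adjusted p = 0.00674). When only the NC and SM4 libraries were fitted in edgeR, the SM4 value passed as well (adjusted p = 0.0067). SM4 against SM2 was 0.11 (SE 0.0535, adjusted p = 0.228).

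CDH2, N-cadherin, the cadherin of mesenchymal and neural cells (chr18:27932879-28177946), was almost absent throughout. It had 0, 4 and 2 counts in NC, 8, 10 and 6 in SM2, and 7, 14 and 13 in SM4. No library exceeded 0.254 CPM, whereas CDH1 was never below 612 CPM. Every NC library was below every SM2 and SM4 library, but CDH2 passed the filter only through the groups in which it was higher. Its log2 fold changes of 2.12 in SM2 (SE 0.746), 2.36 in SM4 (SE 0.717) and 0.25 between SM4 and SM2 (SE 0.572) are therefore given without a test, and it is counted in no call.

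CDH1, E-cadherin, the adhesion protein of epithelial junctions (chr16:68737292-68835537), was lower in SM2 and SM4 than in NC and was abundant in all groups. Its level was 830, 796 and 812 CPM in NC, 729, 694 and 623 CPM in SM2, and 639, 641 and 612 CPM in SM4. Each NC library was above every library of the other groups, which overlapped each other. CDH1 had a log2 fold change of -0.25 in SM2 (SE 0.0478, adjusted p = 0.000534) and -0.37 in SM4 (SE 0.0478, adjusted p = 8.7e-06), which left mean levels of 682 ± 53.8 and 631 ± 15.9 CPM against 812 ± 17.1 in NC (SD, n = 3 each). Without SM2 replicate 3 the SM2 value was -0.19 (adjusted p = 0.000155). SM4 against SM2 was -0.11 (SE 0.0478, adjusted p = 0.14), and without that library it was -0.18 (adjusted p = 0.000457).

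EPCAM (chr2:47345158-47387601) fell slightly in SM2. Its level was 705, 721 and 694 CPM in NC, 626, 594 and 655 CPM in SM2, and 661, 655 and 652 CPM in SM4. Again NC was above both other groups in every library, and those overlapped. EPCAM had a log2 fold change of -0.18 in SM2 (SE 0.0406, adjusted p = 0.00307) and -0.11 in SM4 (SE 0.0405, adjusted p = 0.0677). The SM4 value passed the threshold in DESeq2 (adjusted p = 0.0415), and without SM2 replicate 3 (adjusted p = 0.0058). It also passed in edgeR when only the NC and SM4 libraries were fitted (adjusted p = 0.00502). SM4 against SM2 was 0.07 (SE 0.0406, adjusted p = 0.306).

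GRHL2, the grainyhead-like activator of epithelial genes (chr8:101492439-101669726), passed the test in no comparison. It was at 99.6, 96.9 and 94.0 CPM in NC, 92.6, 93.2 and 82.1 CPM in SM2, and 94.0, 91.2 and 90.2 CPM in SM4. The lowest NC and the highest SM4 library met at 94.0 CPM. The log2 fold change was -0.12 in SM2 (SE 0.0510, adjusted p = 0.113), -0.08 in SM4 (SE 0.0508, adjusted p = 0.334) and 0.04 between SM4 and SM2 (SE 0.0509, adjusted p = 0.684). Without SM2 replicate 3 the last of these became -0.02.

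**Figure D2:**
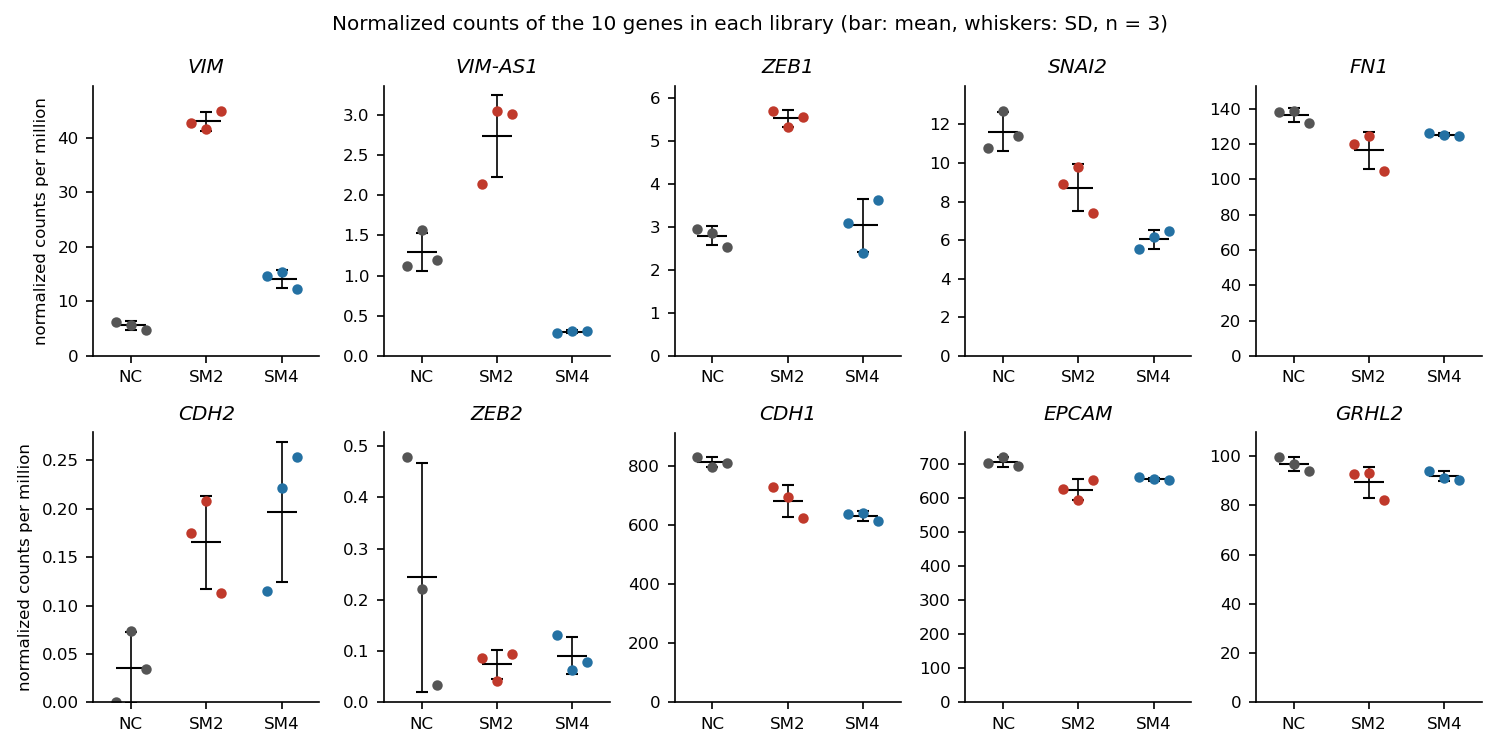
Normalized CPM of the 10 genes in each library, 1 panel per gene on its own linear axis from 0. Points are libraries, the horizontal bar is the group mean and whiskers are the SD (n = 3). VIM, VIM-AS1 and ZEB1 have SM2 as their highest group, while SNAI2, FN1, CDH1, EPCAM and GRHL2 have NC as theirs.

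Leaving aside VIM, VIM-AS1, CDH2 and the untested ZEB2, the remaining 6 genes gave 5 calls in SM2 against NC, ZEB1 higher and FN1, SNAI2, CDH1 and EPCAM lower. Over all genes tested 22.3% were called in this comparison, 12% higher and 10.3% lower. In SM4 against NC there were 2 calls, SNAI2 and CDH1, both lower, where 21.2% of all genes were called, 11% higher and 10.2% lower. SM4 against SM2 gave 2, ZEB1 and SNAI2, both lower in SM4, with 12.8% of all genes called, 6.04% higher and 6.76% lower. Without SM2 replicate 3, FN1 and EPCAM were also called lower in SM4 than in NC, and CDH1 lower in SM4 than in SM2. FN1 and EPCAM were called lower in SM4 too when only the NC and SM4 libraries were fitted. Such a small set cannot be set against these shares, and SM2 and SM4 were compared with the same NC libraries. On the epithelial side, CDH1 and EPCAM fell by at most 0.37 on the log2 scale where called, and on the mesenchymal side ZEB1 rose while FN1 and SNAI2 fell in SM2.

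**Figure D3:**
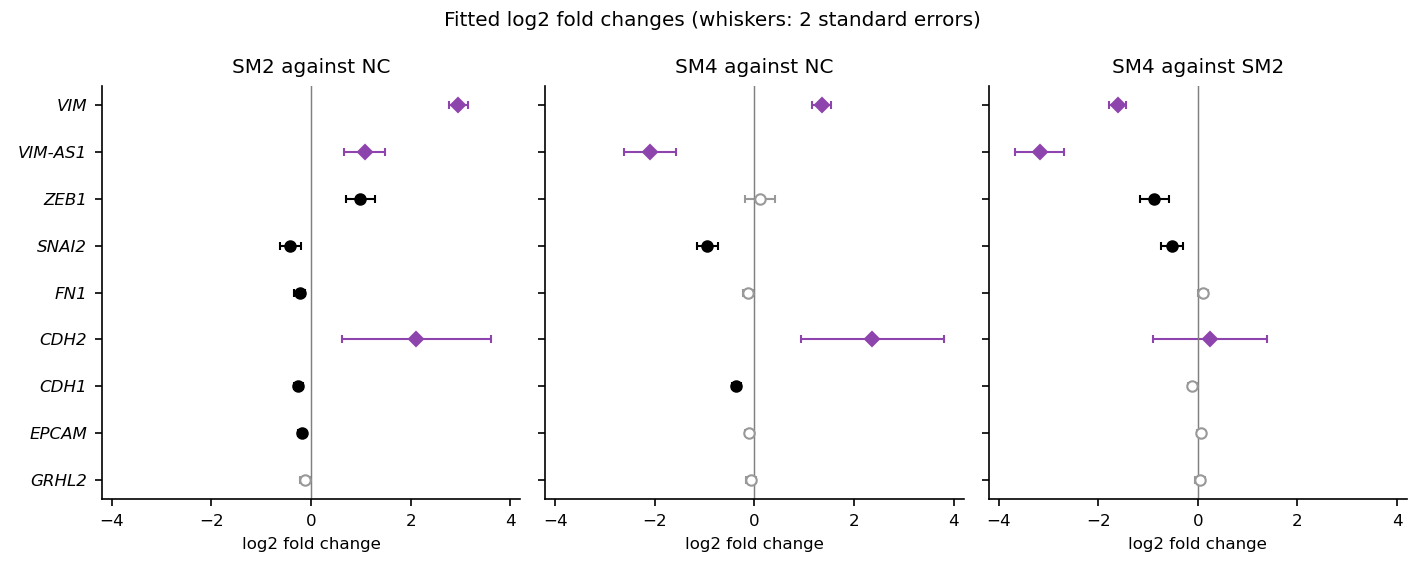
Fitted log2 fold changes of the 9 genes that passed the filter for SM2 and SM4 each against NC and for SM4 against SM2, with whiskers of 2 standard errors. Purple diamonds are VIM, VIM-AS1 and CDH2, given without a test, filled black points passed an adjusted p of 0.05 and open grey points did not. VIM in SM2 lies at 2.96, CDH2 has the widest whiskers, and the 6 tested genes lie between -1 and 1 in every comparison.

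Per kilobase of exon, the mean levels over the 9 libraries kept an epithelial order. EPCAM averaged 273 CPM per kb, CDH1 117 and GRHL2 15.3, compared with 7.32 for FN1, 4.04 for VIM, 2.68 for SNAI2, 0.679 for VIM-AS1, 0.438 for ZEB1, 0.0155 for CDH2 and 0.0052 for ZEB2. On this scale VIM was below CDH1 and EPCAM in every library, SM2 included.

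Other mesenchymal genes were then taken from a list of 33 that leaves out the 10, of which 27 passed the filter. In SM2 against NC, 7 were called higher and 4 lower (40.7% called, against 22.3% of all genes), with a median log2 fold change of 0.11 compared with 0.00 over all genes. In SM4 against NC, 6 were called higher and 9 lower (55.6% called, against 21.2% of all genes), with a median of 0.03. Of the 27, 22 averaged at least 1 CPM, while the shares over all genes include genes below that level. In a fit of the 14431 genes at that level, 4327 were called in SM2 and 4101 in SM4, with 11 and 15 of the 22. CDH11, THY1, COL1A2, POSTN, LUM and DCN, which fibroblasts make in quantity, reached at most 14 counts in any library.

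The largest called change of that list in SM2 was in MSN (moesin), which links actin filaments to the plasma membrane. MSN was at 1.5 to 2.83 CPM in NC, 22.8 to 24.9 CPM in SM2 and 11 to 11.9 CPM in SM4, so its groups kept the same order as those of VIM without overlap. Its log2 fold change was 3.50 in SM2 (SE 0.133, adjusted p = 5.9e-13) and 2.42 in SM4 (SE 0.136, adjusted p = 6.11e-11). COL6A2, a chain of collagen VI, rose by 1.26 in SM2 (adjusted p = 7.63e-11) and 0.83 in SM4 (adjusted p = 2.03e-08). GNG11, a G protein gamma subunit, rose by 1.05 in SM2 (adjusted p = 3.69e-09) and 0.31 in SM4 (adjusted p = 0.00609). SPARC, a matrix glycoprotein, rose by 1.04 in SM4 (adjusted p = 0.000593) from about 1 CPM.

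Other genes of the list moved the other way. The 4 called lower in SM2, named after their values were seen, were the matrix glycoprotein TNC, the receptor tyrosine kinase AXL, the hyaluronan receptor CD44 and FSTL1. AXL, CD44 and FSTL1 were also lower in SM4 than in NC, at -0.353 (adjusted p = 2.09e-05), -0.344 (adjusted p = 3.97e-06) and -0.335 (adjusted p = 1.2e-05). TNC fell from 76.4 to 84.1 CPM in NC to 45.4 to 52.2 CPM in SM2, a log2 fold change of -0.70 (SE 0.0583, adjusted p = 2.18e-08), and to 47.4 to 51.4 CPM in SM4 (adjusted p = 1.78e-08). LGALS1 (galectin-1) rose in SM2 by 0.27 (adjusted p = 0.00248), and in SM4 its log2 fold change was -0.27 (adjusted p = 0.00211), a fall. FBN1 (fibrillin-1) had a log2 fold change of -0.65 in SM4 (adjusted p = 0.0279), a call lost without any 1 of NC replicates 1 and 3 and SM4 replicates 1, 2 and 3 (adjusted p 0.0537 to 0.143). AXL lost its SM2 call without NC replicate 2 (-0.15, adjusted p = 0.0785), and FSTL1 without NC replicate 1 (-0.16, adjusted p = 0.0523). Between the labels, 14 of the 27 were lower and 1 higher in SM4 than in SM2, with a median of -0.16. Over all genes tested 12.8% were called in this comparison, 6.04% higher and 6.76% lower. The count of calls in the list fell from 15 to 8 without SM4 replicate 1 and to 9 without SM4 replicate 3.

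Of 12 further transcription factors tied to EMT, 7 did not pass the filter. TWIST1, TWIST2, FOXC2, PRRX1, TCF4, GSC and KLF8 reached at most 14 counts in any library. Of the 5 tested, 4 rose in SM2 and 0 fell, both with edgeR and with DESeq2, while at an unadjusted p below 0.05 edgeR had 4 higher and 1 lower. Their median was 0.21, and over all genes 12% were higher and 10.3% lower. All 5 averaged at least 1 CPM, while those shares include genes below that level. In SM4 against NC 1 of the 5 was called higher and 1 lower, with a median of -0.12. Over all genes 11% were higher and 10.2% lower in SM4. HMGA2, a chromatin architectural protein, went from 36.6 to 37.0 CPM in NC to 50.6 to 56.1 CPM in SM2, a log2 fold change of 0.54 (SE 0.0553, adjusted p = 4.09e-07). TCF3 rose by 0.19 (adjusted p = 0.0024). FOXC1 rose by 0.21 in SM2 (adjusted p = 0.017), a call lost without NC replicate 2 (adjusted p = 0.0741) or NC replicate 3 (adjusted p = 0.059). In SM4 FOXC1 was higher than in NC by 0.36 (adjusted p = 0.000136). SNAI1 (Snail), the relative of SNAI2, was at -0.30 in SM2 (adjusted p = 0.117) and -0.47 in SM4 (adjusted p = 0.0135), and the SM4 call was lost without SM4 replicate 3 (adjusted p = 0.0582). Against SM2, SM4 was lower for HMGA2 (-0.66, adjusted p = 4.73e-08) and TCF3 (-0.19, adjusted p = 0.00462).

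The 30 genes of epithelial junctions all passed the filter and were called in both directions. In SM2 7 were higher and 6 lower than in NC (43.3% called, against 22.3% of all genes), with a median log2 fold change of -0.01. In SM4 11 were higher and 3 lower (46.7% called, against 21.2%), with a median of 0.08. All 30 averaged at least 1 CPM, while the shares over all genes include genes below that level. In a fit of the 14431 genes at that level, 4327 were called in SM2 and 4101 in SM4, with 14 of the 30 in each. The tight junction gene CLDN3 (claudin-3) rose by 0.83 in SM2 (SE 0.0617, adjusted p = 4.44e-09), from 21.3 to 22.3 CPM in NC to 37.0 to 41.0 CPM. CLDN3 was also higher in SM4 than in NC, by 0.335 (adjusted p = 0.000423). MARVELD2 (tricellulin) had a log2 fold change of -0.54 in SM2 (SE 0.0709, adjusted p = 9.9e-06), from 28 to 31.4 CPM down to 18.9 to 22.6 CPM. Among the 6 lower in SM2 were the desmosome genes DSG2, DSC2, DSP and PKP2, a grouping made after their values were seen, while the desmosome gene JUP was higher by 0.16 (adjusted p = 0.00788), a call lost without NC replicate 1 (adjusted p = 0.0605) or SM2 replicate 2 (adjusted p = 0.0556). DSG2 was also lower in SM4 (-0.37, adjusted p = 7e-06), and PPL (periplakin) was higher there (0.44, adjusted p = 1.39e-06). Between the labels, CLDN3 (-0.49, adjusted p = 7.71e-06) and CLDN1 (-0.36, adjusted p = 6.79e-06) were lower in SM4 and MARVELD2 was higher (0.44, adjusted p = 0.000187).

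Of 18 regulators of the epithelial state, 5 were higher and 3 lower in SM2 (44.4% called, against 22.3% of all genes) and 6 higher and 1 lower in SM4 (38.9%, against 21.2%), with medians of 0.11 and 0.12. Here too most of the list, 16 of the 18, averaged at least 1 CPM, unlike the genes behind the shares over all genes. The repressors OVOL1 and OVOL2, which oppose EMT, went in opposite directions in SM2, OVOL2 rising by 0.77 (adjusted p = 0.000116) and OVOL1 at -0.47 (adjusted p = 5.66e-05). PRSS8 (prostasin) rose by 0.37 in SM2 (adjusted p = 3e-05) and 0.49 in SM4 (adjusted p = 7.03e-07). The epithelial factor ELF3 rose by 0.35 in SM2 (adjusted p = 6.22e-06) and 0.43 in SM4 (adjusted p = 3.1e-07). SPDEF, an ETS factor of secretory epithelium, was at -0.86 in SM4 (adjusted p = 2.9e-05). MIR200CHG, the host of microRNAs that target ZEB1 and ZEB2, was at 0.22 in SM2 (adjusted p = 0.681) and averaged under 1 CPM.

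The other intermediate filament genes gave 5 higher and 0 lower of 11 tested in each of SM2 and SM4 against NC, with edgeR's quasi-likelihood test (45.5% called in each), and medians of 0.19 and 0.14. Over all genes 12% were higher and 10.3% lower in SM2, and 11% higher and 10.2% lower in SM4. DESeq2 called 6 higher and 0 lower in each, and at an unadjusted p below 0.05 edgeR had 7 higher in each, with 2 lower in SM2 and 0 in SM4. The 5 in SM2 include DES (desmin), at 0.171 to 0.257 CPM in NC and 0.528 to 0.766 CPM in SM2. Like CDH2, DES passed the filter only through groups in which it was higher, so its place in these counts carries no weight. Of the 11, 9 averaged at least 1 CPM, while the shares over all genes include genes below that level. SYNM (synemin), a partner of vimentin in filaments, rose by 1.13 in SM2 (SE 0.0838, adjusted p = 4.01e-09), from 10.1 to 11.2 CPM in NC to 21.4 to 26.2 CPM. In SM4 it was at 12.6 to 13.8 CPM, a log2 fold change of 0.29 (adjusted p = 0.0178) that was not called without NC replicate 1 (adjusted p = 0.0738), NC replicate 2 (adjusted p = 0.0653) or SM4 replicate 1 (adjusted p = 0.0919). The epithelial keratins KRT8 and KRT18, which form filaments together, rose in SM2 by 0.28 (adjusted p = 8.05e-06) and 0.24 (adjusted p = 5.11e-05). KRT8 was the most abundant of these genes, at 4692 to 4918 CPM in NC and 5736 to 5985 CPM in SM2. In SM4 NES (nestin) rose by 0.37 (adjusted p = 0.00158) and KRT19 by 0.30 (adjusted p = 1.04e-05). KRT19 was also higher in SM2 (0.19, adjusted p = 0.00143), and KRT8 in SM4 (0.19, adjusted p = 0.000437). KRT18 was higher in SM4 by 0.14 (adjusted p = 0.00918), a call lost without NC replicate 1 (adjusted p = 0.0739) or SM4 replicate 2 (adjusted p = 0.0523). LMNA (lamin A/C) was higher in SM4 than in SM2 by 0.15 (adjusted p = 0.0114), a call lost without SM4 replicate 1 (adjusted p = 0.0506) or SM4 replicate 2 (adjusted p = 0.0642).

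Of 12 other cadherins 6 were tested, and 0 were called in SM2 by edgeR or DESeq2, with 1 higher and 0 lower at an unadjusted p below 0.05 in edgeR. Over all genes 22.3% were called in SM2 against NC. Only 2 of the 6 averaged at least 1 CPM, and such a small set cannot be set against that share. CDH24 was at -0.20 in SM4 (adjusted p = 0.00755), a call lost without SM4 replicate 2 (adjusted p = 0.0569), and CDH3 (P-cadherin) was at -0.33 between SM4 and SM2 (adjusted p = 0.00116). The mesenchymal cadherins CDH11 and CDH13 each reached at most 4 counts.

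**Figure D4:**
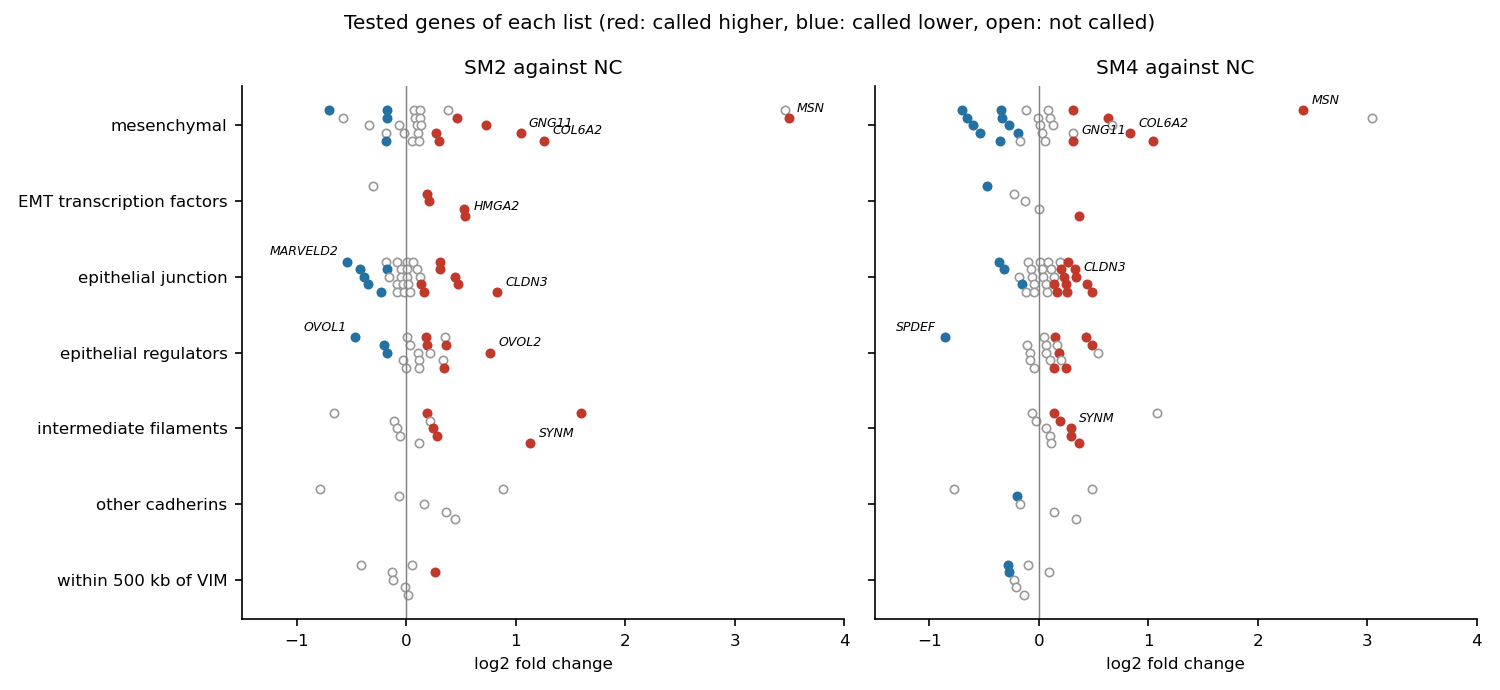
Log2 fold changes of the tested genes of each list, 1 point per gene, in SM2 against NC and SM4 against NC. Red points were called higher, blue points lower and open points were not called, and vertical offsets within a list only separate points. The mesenchymal list spans both directions in SM2, from TNC at -0.70 to MSN at 3.50, and the epithelial junction list is centered near 0.

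Genes beside VIM did not share its difference in size. Of 16 annotated genes within 500 kb of VIM, 7 passed the filter. HACD1, 389 kb from the start of VIM, rose by 0.26 in SM2 (adjusted p = 0.0209), and the call was lost without NC replicate 1 (adjusted p = 0.0945), SM2 replicate 2 (adjusted p = 0.105) or SM2 replicate 3 (adjusted p = 0.0557). TRDMT1, an RNA methyltransferase gene whose start lies 26.2 kb before that of VIM, was at -0.13 in SM2 (adjusted p = 0.376) and -0.29 in SM4 (adjusted p = 0.0348), and the SM4 call was lost without any 1 of NC replicates 1 and 2 and the 3 SM4 libraries (adjusted p 0.0739 to 0.124) and with no filter on low counts (adjusted p = 0.0612). RSU1 was at 0.01 in SM2 (adjusted p = 0.928) and -0.27 in SM4 (adjusted p = 0.00612), lost without NC replicate 3 (adjusted p = 0.0548) or SM4 replicate 1 (adjusted p = 0.0693). CUBN, PRPF38AP2, STAM-DT and STAM had log2 fold changes from -0.42 to 0.05 in SM2 and from -0.23 to -0.10 in SM4, and none was called.

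Across the 9 libraries, the genes whose log2 CPM followed VIM most closely among 13788 compared included TMEM8B (Pearson r = 0.991), CLDN3 (0.990), FAM20C (0.988) and ACSS2 (0.988). These are descriptions over 9 libraries in 3 groups that also share their NC libraries. TMEM8B averaged 9.26, 14.7 and 11.8 CPM in NC, SM2 and SM4. Each of these 4 had the order NC, SM4, SM2 from low to high without overlap, as VIM did. They were chosen for following VIM, so this order came from the choice and is no separate result. Their spread between groups was smaller than that of VIM, with SM2 means of 14.7 to 50.9 CPM for the 4 against 9.26 to 33.7 in NC. Among the 10 genes themselves r with VIM was 0.866 for ZEB1, 0.64 for CDH2, 0.391 for VIM-AS1, -0.382 for ZEB2, -0.387 for SNAI2, -0.59 for CDH1, -0.635 for GRHL2, -0.812 for FN1 and -0.86 for EPCAM.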

How the data were processed

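The deposited table holds raw read counts per gene, made by the authors with fastp, HISAT2 and featureCounts of Subread on GRCh38 (hg38), per the labels and processing notes. Groups follow the labels. Versions and the strand setting are not given in the sources used here. The labels name a stranded kit with paired reads and the study's methods another kit with single reads. No column was left unused, and 60463 of 60649 identifiers matched GENCODE v44.

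All 9 libraries entered one model with group as the only term (edgeR 4.0.16 in R 4.3.3). Genes were filtered with filterByExpr (minimum count 10), TMM factors ran from 0.989 to 1.01, and glmQLFTest p-values were adjusted by Benjamini-Hochberg over 19674 genes and called below 0.05. CPM values use the TMM-normalized library sizes. Depth of 44103272 to 63693728 counts sets the precision at low levels. Alternatives were DESeq2 1.42.0, other normalizations and filters, each library left out, the 6 libraries compared alone, a replicate block and a threshold of 0.01.

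The members and lists were chosen with earlier results of these data known. Named genes were the 10, METTL3, tested genes within 500 kb of VIM, the 3 largest called changes per list and comparison among genes of at least 1 CPM, and the 5 genes nearest VIM by Pearson r of log2 CPM (prior count 2). Others were named after their values were seen and are marked where they are described. JUP, DSC2, DSP, PKP2, MIR200CHG and LGALS1 are also of this kind. Some genes that this rule names are not reported here. The procedure was tested on simulated data. Figures were drawn with matplotlib 3.10.9.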

Additional observations from a re-analysis of the deposited data

Results flagged for a closer look

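The difference between the knockdown labels was itself called for ZEB1 and SNAI2. ZEB1 was lower in SM4 than in SM2 by a log2 fold change of -0.87 (adjusted p = 0.000225, edgeR), so its rise in SM2 differed in size from the value in SM4. SNAI2 was lower in SM4 than in SM2 by -0.53 (adjusted p = 0.0024), both labels being below NC.

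VIM-AS1 was above NC in 3 of 3 SM2 libraries, with a log2 fold change of 1.08, and below NC in 3 of 3 SM4 libraries, with -2.10. The opposite directions are what drew attention to it, and this difference was not tested because VIM-AS1 was chosen for its levels.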

How the results depend on the processing

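Of the counts of calls recomputed under the alternatives, 197 stayed within 1.5 times the reported value and 7 did not. At an adjusted p below 0.01 the calls over all genes fell to 2775 for SM2 and 2647 for SM4, each against NC, and to 1393 between SM4 and SM2. With 1 library left out, the calls over all genes in SM4 against SM2 ran from 1574 (without SM4 replicate 1) to 2838. The calls among the tested genes other than VIM and VIM-AS1 ran from 2 to 5 in SM4 against NC with CDH2 included, and those of the mesenchymal list from 8 to 16 in SM4 against SM2. The log2 fold change of ZEB1 in SM4 against NC ran from -0.026 (without SM4 replicate 3) to 0.267 and that of GRHL2 in SM4 against SM2 from -0.023 (without SM2 replicate 3) to 0.075. The cause of these shifts was not tested. Of 125 calls of list genes outside the 10, 33 were lost under at least 1 alternative. VIM kept its direction throughout, from 2.74 to 3.04 in SM2 against NC. The labels give the replicate numbers no shared source, and they were not taken as pairs. Deviations of same-numbered libraries correlated at -0.095 to 0.15, above 0.1 in 3 of 9 pairs, and those of different numbers at -0.158 to 0.197. In 6 of 9 libraries the highest correlation was with their own number, a hint from the data and not from the design. With a replicate block the calls over all genes were 4694, 4484 and 2815 in the 3 comparisons, and no call among the tested genes of the 10 changed. At these depths 1 CPM is 44.1 to 63.7 counts, so CDH2, ZEB2 and, in SM4, VIM-AS1 rest on few counts.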
